A study of Mus musculus with 8 samples.

Results

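The genes described here encode voltage-gated sodium channels (Scn), voltage-gated calcium channels (Cacn) and potassium channels (Kcn), together with their accessory subunits, in the striatum of mice given the neurotoxin MPTP with or without needling. They were taken by gene symbol from the array's annotation, keeping for each gene only its brightest probe set on average. The symbol rule matched 124 genes, and 116 of them averaged 5.25 or more on the log2 scale over the 8 arrays, out of 14883 genes and 16335 probe sets that passed the same level. Just above that level lay Kcne4 at 5.28 and Kcna10 at 5.31, and just below it Scn10a at 5.22 and Kcnu1 at 5.09. The rule left out 2 further channel genes by name. The members comprise 8 sodium channel genes (5 pore, 3 beta), 23 calcium channel genes (9 pore, 4 alpha2delta, 3 beta, 7 gamma), 82 potassium channel genes and 3 non-coding antisense genes (Kcnd3os, Kcnmb4os1, Kcnmb4os2) named as antisense to potassium channel genes.

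Total RNA from the bilateral striatal tissue of 8 male C57BL/6 mice, 6 weeks old at the start, was hybridised to whole-transcript arrays, 1 for each animal, in 4 groups of 2. The MPTP group received 20 mg/kg MPTP intraperitoneally every 24 h for 4 weeks. The acupoint group received the same MPTP and manual needling at LR3 (depth 1 mm) and GB34 (depth 3 mm). In the non-acupoint group the needles entered both hips (depth 3 mm) on top of the same MPTP. Needling was repeated every 48 h for 14 sessions. The control group received saline on the same schedule and no needling. No needled group without MPTP was analysed here, so needling is seen only on top of the toxin.

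Sodium channels carry the upstroke of the action potential, calcium channels couple depolarisation to transmitter release and gene regulation, and potassium channels set the resting potential, end each spike and space the spikes of a train. Pore subunits form the conducting path, while beta, alpha2delta, gamma and KChIP subunits change the traffic and gating of the pore. The medium spiny projection neurons of the striatum rest at a very negative potential held by inward rectifier potassium channels, and A-type potassium channels delay their first spike. Fast-spiking interneurons rely on quickly closing Kv3 channels, and thalamic neurons fire bursts through T-type calcium channels. Loss of dopamine input is known to alter the excitability of these cells.

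The arrays of a group were not alike in the tissue markers they carried. Relative to the control mean on the log2 scale, the mean of 11 of 14 listed striatal projection neuron markers was -2.06 and 0.36 in MPTP mice 1 and 2, -0.12 and 0.29 in acupoint mice, -0.13 and -0.61 in non-acupoint mice, and 0.01 and -0.01 in controls. The mean of 12 of 12 markers of thalamus, septum and pallidum was 1.99 and -0.74 in MPTP mice, 0.70 and -0.20 in acupoint mice, 0.31 and 1.38 in non-acupoint mice, and 0.01 and -0.01 in controls. For 9 of 9 choroid plexus markers the means were 2.13 and -0.22, 2.28 and 0.16, and 2.07 and 2.71 in the MPTP, acupoint and non-acupoint mice. MPTP mouse 1 thus carried the least striatal and the most thalamic marker signal. Log2 array values have no true zero, so no marker could be called absent. Ppp1r1b, which encodes DARPP-32 and is among the listed striatal projection neuron markers, had 8.97 in MPTP mouse 1 and 10.65 to 11.65 on the other 7 arrays. A single gene without a detection call cannot show how much striatal tissue an array held. In these tissue extracts, fewer cells of a type and less RNA per cell cannot be told apart.

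No channel gene passed the adjusted threshold in any comparison of groups. Limma called 0 of the 116 channel genes in each of the 7 contrasts and in the test over all 4 groups, and 0% of all probe sets. When MPTP mouse 2 was left out and MPTP mouse 1 alone stood for the group, 46 channel genes (39.7%) passed for MPTP against control, against 9.86% of all probe sets. In that fit 43 (37.1%, against 8.90%) passed for acupoint against MPTP and 28 (24.1%, against 4.86%) for non-acupoint against MPTP. The values of the MPTP mice lay far apart. MPTP mouse 1 was below MPTP mouse 2 by 1 or more on the log2 scale for 18 of 116 channel genes (15.5%), against 2.74% of all probe sets, and above it by 1 or more for 16 (13.8%), against 2.34%. The median distance between these mice was 0.53 for channel genes and 0.20 for all probe sets. Controls 1 and 2 differed by a median of 0.09 for channel genes and 0.10 for all probe sets. A distance of 1 or more separated 1 channel gene in acupoint mice (Kcne2, with a background of 0.441% of probe sets), 1 in non-acupoint mice (Kcnc2, background 0.367%) and 0 in controls (background 0.00612%). These distances are between single mice and have no replicate check.

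**Figure D1:**
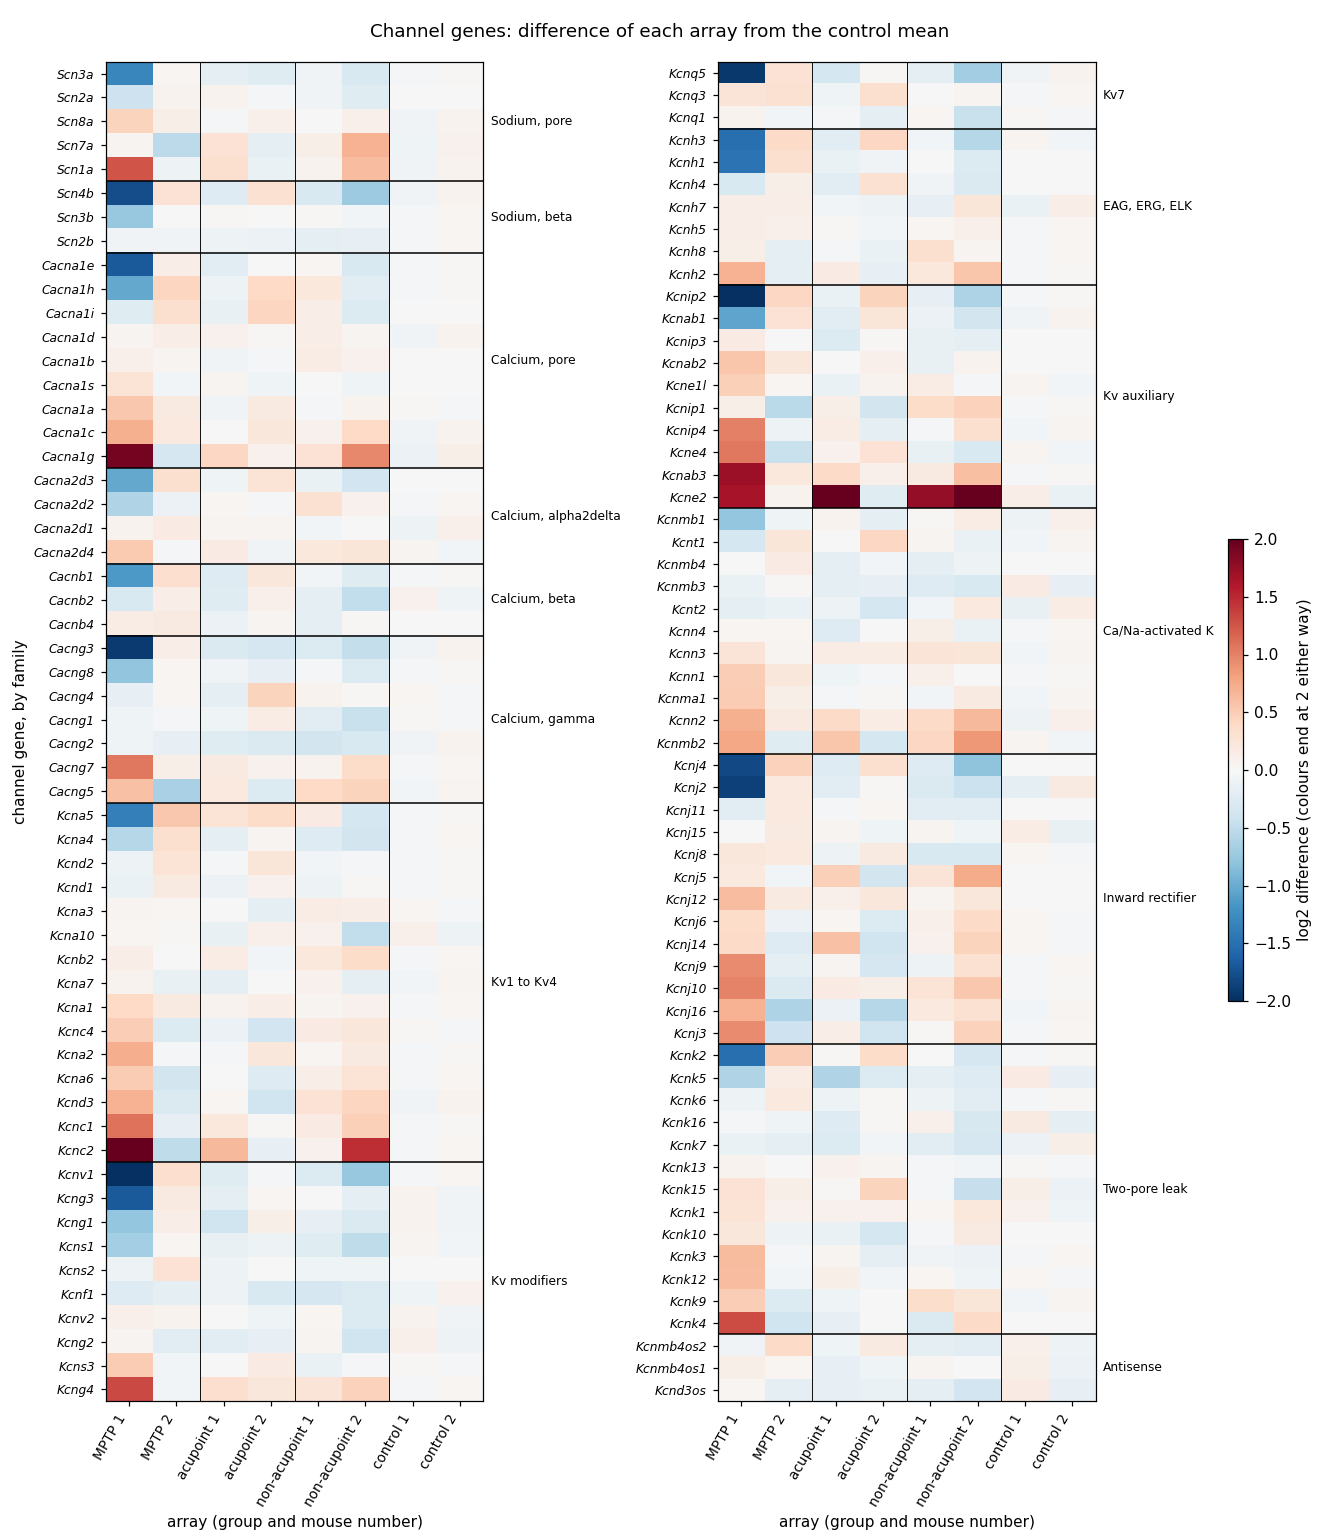
Difference of each array from the control mean on the log2 scale (colour) for the 116 channel genes (rows, by family, sorted within a family by the distance between the MPTP mice) in the 8 arrays (columns). The column of MPTP mouse 1 holds most of the deep colours in both directions, and Kcne2 is high in 4 arrays.

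Among the genes that were low in MPTP mouse 1, several are known as channels of striatal projection neurons. Kcnip2, a KChIP subunit that brings A-type Kv4 channels to the membrane, had log2 values of 7.58 and 10.13 in MPTP mice 1 and 2, 9.59 and 10.16 in acupoint mice, 9.56 and 9.10 in non-acupoint mice and 9.69 and 9.75 in controls. Kcnj4, an inward rectifier of the Kir2 family that helps hold medium spiny neurons at rest, had 6.85 and 9.11 in MPTP mice 1 and 2, 8.38 and 8.96 in acupoint mice, 8.39 and 7.85 in non-acupoint mice and 8.63 and 8.65 in controls. In both, MPTP mouse 1 lay far below the other 7 arrays, non-acupoint mouse 2 was the next lowest, and MPTP mouse 2 lay above both controls. Kcnj2, another Kir2 channel of these neurons, had 6.19 and 8.25 in MPTP mice 1 and 2, 7.82 and 8.07 in acupoint mice, 7.76 and 7.63 in non-acupoint mice and 7.88 and 8.23 in controls. Scn4b, a sodium channel beta subunit that is abundant in the striatum and promotes resurgent current, had 8.84 and 10.91 in MPTP mice 1 and 2, 10.36 and 10.92 in acupoint mice, 10.31 and 9.90 in non-acupoint mice and 10.55 and 10.68 in controls. MPTP and control values overlapped for all 4 genes because the MPTP mice fell on both sides of the controls.

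The opposite arrangement was found for channels known from fast-spiking and thalamic neurons. Kcnc2, a Kv3 channel that lets neurons fire at high rates, had 10.86 and 7.99 in MPTP mice 1 and 2, 9.14 and 8.32 in acupoint mice, 8.58 and 9.97 in non-acupoint mice and 8.45 and 8.53 in controls. Cacna1g, the T-type calcium channel behind thalamic burst firing, had 9.04 and 6.79 in MPTP mice 1 and 2, 7.55 and 7.21 in acupoint mice, 7.42 and 8.09 in non-acupoint mice and 7.01 and 7.25 in controls. Both were highest in MPTP mouse 1, next highest in non-acupoint mouse 2 and lowest in MPTP mouse 2. Scn1a, a sodium channel pore of fast-spiking interneurons and many projection neurons, had 10.54 and 9.17 in MPTP mice 1 and 2, 9.59 and 9.14 in acupoint mice, 9.35 and 9.89 in non-acupoint mice and 9.20 and 9.35 in controls. Kcnj3, which encodes a subunit of the G protein-gated inward rectifier, had 8.78 and 7.42 in MPTP mice 1 and 2, 7.96 and 7.43 in acupoint mice, 7.86 and 8.29 in non-acupoint mice and 7.79 and 7.86 in controls. In all 4 genes MPTP mouse 1, non-acupoint mouse 2 and acupoint mouse 1 were the 3 highest arrays in that order, as they were for the thalamus, septum and pallidum markers. Relative to controls, the mean of 8 of 8 interneuron markers was -0.84 and 0.05 in MPTP mice, 0.04 and 0.03 in acupoint mice and 0.11 and -0.01 in non-acupoint mice. Of these markers only Pvalb was higher in MPTP mouse 1 than in mouse 2, at 10.60 and 8.18, and all others were lower. The part of tissue makeup in these values was not tested.

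**Figure D2:**
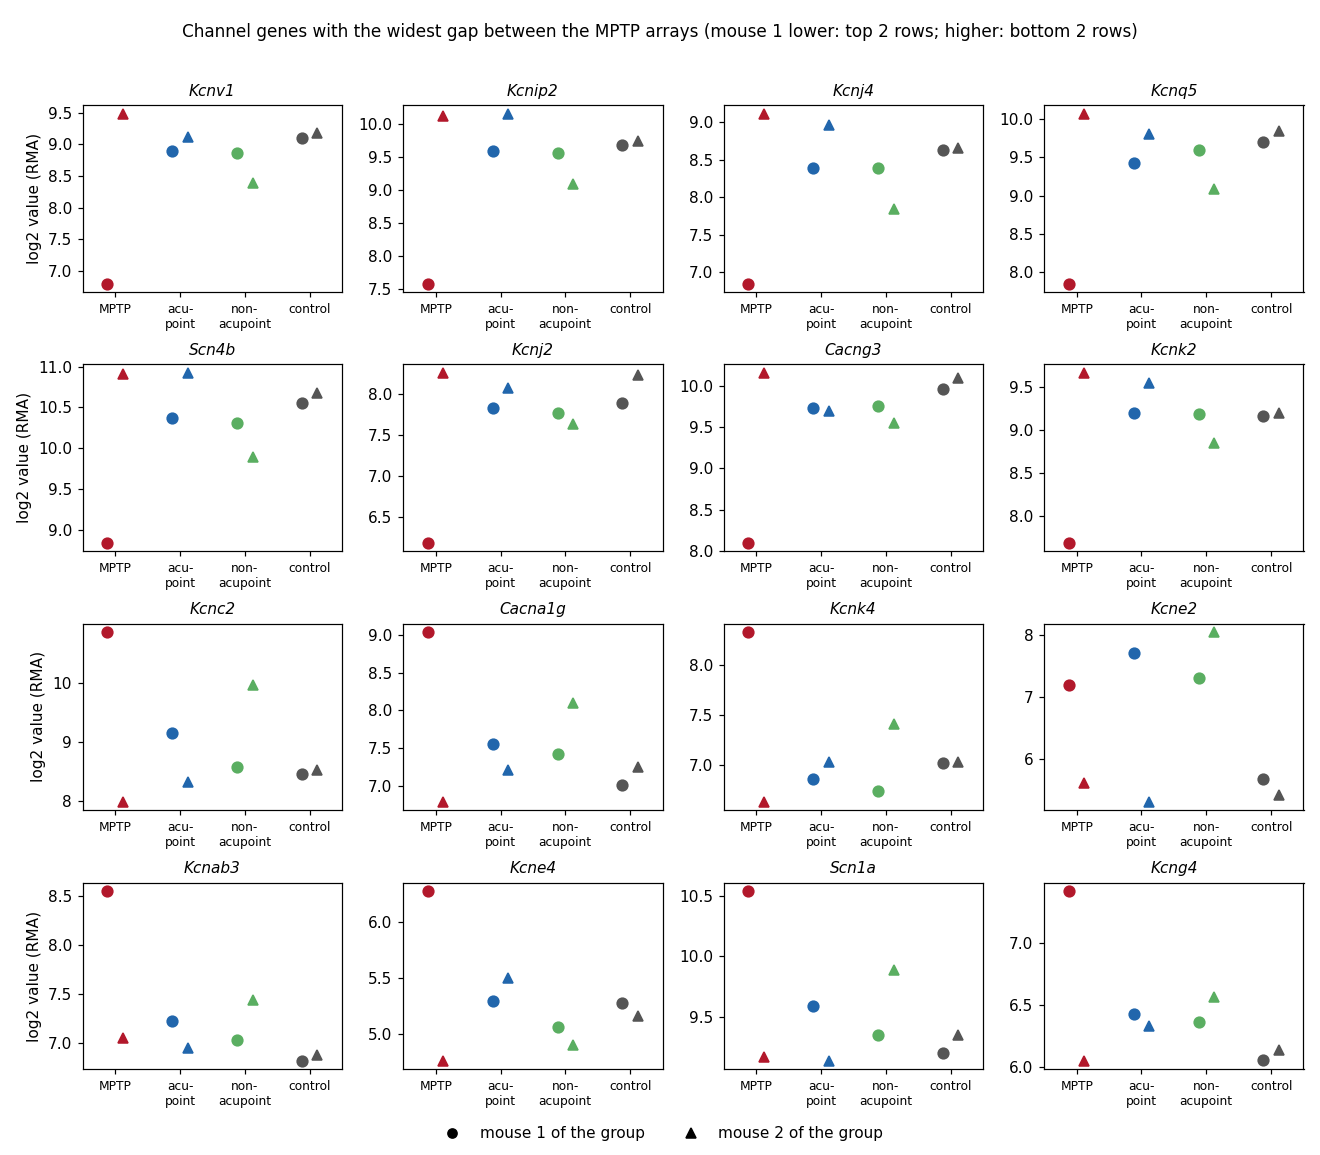
Log2 values of the 8 channel genes furthest below (top 2 rows) and the 8 furthest above (bottom 2 rows) in MPTP mouse 1 relative to MPTP mouse 2, with 1 point per mouse and the groups along the horizontal axis. Control mice lie within 0.35 of each other in each panel, and in most panels MPTP mouse 1 and MPTP mouse 2 are at opposite ends.

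Promoter windows of 4 of these genes are printed because these genes stand for the opposed arrangements, and each has a single window in the RefSeq-derived table (build GRCm38.p6, 250 bases before to 50 after the start, 5′ to 3′ on the gene's strand). Capitals mark the GC box GGGCGG on either strand. Kcnip2 (chr19:45816014-45816313, minus strand) and Kcnj4 (chr15:79505192-79505491, minus strand) were low in MPTP mouse 1, and Scn1a (chr2:66440788-66441087, minus strand) and Kcnj3 (chr2:55435720-55436019, plus strand) were high there.
Kcnip2: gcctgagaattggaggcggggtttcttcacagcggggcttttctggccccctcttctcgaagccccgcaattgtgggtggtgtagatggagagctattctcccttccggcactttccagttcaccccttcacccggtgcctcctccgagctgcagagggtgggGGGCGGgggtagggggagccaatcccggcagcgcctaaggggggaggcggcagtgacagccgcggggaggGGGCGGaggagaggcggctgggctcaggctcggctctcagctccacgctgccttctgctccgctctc
Kcnj4: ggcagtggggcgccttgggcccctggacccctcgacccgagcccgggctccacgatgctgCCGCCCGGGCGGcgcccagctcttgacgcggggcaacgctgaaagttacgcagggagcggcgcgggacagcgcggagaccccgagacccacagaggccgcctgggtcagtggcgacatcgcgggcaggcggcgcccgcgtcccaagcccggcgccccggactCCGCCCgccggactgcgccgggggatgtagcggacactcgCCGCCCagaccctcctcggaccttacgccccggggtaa
Scn1a: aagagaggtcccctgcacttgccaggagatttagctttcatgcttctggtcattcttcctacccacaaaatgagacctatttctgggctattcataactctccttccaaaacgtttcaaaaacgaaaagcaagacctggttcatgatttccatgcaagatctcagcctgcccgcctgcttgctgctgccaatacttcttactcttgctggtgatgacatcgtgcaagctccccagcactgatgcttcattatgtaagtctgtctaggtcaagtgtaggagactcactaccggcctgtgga
Kcnj3: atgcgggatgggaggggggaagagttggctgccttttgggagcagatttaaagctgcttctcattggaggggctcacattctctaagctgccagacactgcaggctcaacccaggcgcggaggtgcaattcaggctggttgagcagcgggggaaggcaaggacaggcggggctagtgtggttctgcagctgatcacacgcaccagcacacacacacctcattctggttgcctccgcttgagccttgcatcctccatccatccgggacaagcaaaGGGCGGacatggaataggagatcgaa
The windows hold 2 GC boxes for Kcnip2, 4 for Kcnj4, 0 for Scn1a and 1 for Kcnj3, and 18, 41, 5 and 10 CpG dinucleotides in the same order. The table had windows for 88 of the 116 channel genes. A GC box was found in 46.7% of their 122 windows and in 35.7% of all 32851 windows. It was in 9 of 21 windows of the genes lower by 1 or more in MPTP mouse 1 (42.9%) and in 8 of 23 windows of those higher by 1 or more (34.8%), with median CpG counts of 18 and 5 per window and 7 over all windows. The TATA motif TATAAA, searched on both strands, was in 4.92% of channel gene windows and 13.6% of all windows. These matches describe letters in a window and were not tested.

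Distances between the mice of the needled groups, which share no array with the MPTP group, ran along the same genes. Mouse numbers carry no order, so a distance may point either way. Of the 18 channel genes lower by 1 or more in MPTP mouse 1 than in mouse 2, 18 were higher in non-acupoint mouse 1 than in mouse 2 and 16 were lower in acupoint mouse 1 than in mouse 2. Of the 16 genes higher by 1 or more in MPTP mouse 1, 15 were lower in non-acupoint mouse 1 and 14 were higher in acupoint mouse 1 than in mouse 2 of the same group. The shares were 100% and 88.9% for the first set and 93.8% and 87.5% for the second. All probe sets chosen in the same way gave 94.0%, 83.7%, 95.3% and 90.8%, so these shares were close to the background. In controls, mouse 1 was the lower mouse for 15 of the 18 and 13 of the 16 genes (83.3% and 81.2%), with medians of -0.05 and -0.07. Control mouse 1 was also the lower mouse for most of all probe sets chosen in the same way (69.1% and 63.4%). Their medians were -0.05 and -0.04. The sizes were smaller than in the MPTP group, with median distances of 0.34 and -0.35 in non-acupoint and acupoint mice for the first set and -0.40 and 0.37 for the second. Over the 116 genes, the distance in the MPTP group (mouse 1 minus mouse 2) had a Pearson correlation across genes of -0.741 with that in the non-acupoint group, 0.582 with that in the acupoint group and 0.014 with that in controls. Over 16335 probe sets the same correlations were -0.493, 0.403 and 0.072. Genes share arrays and are not independent replicates.

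**Figure D3:**
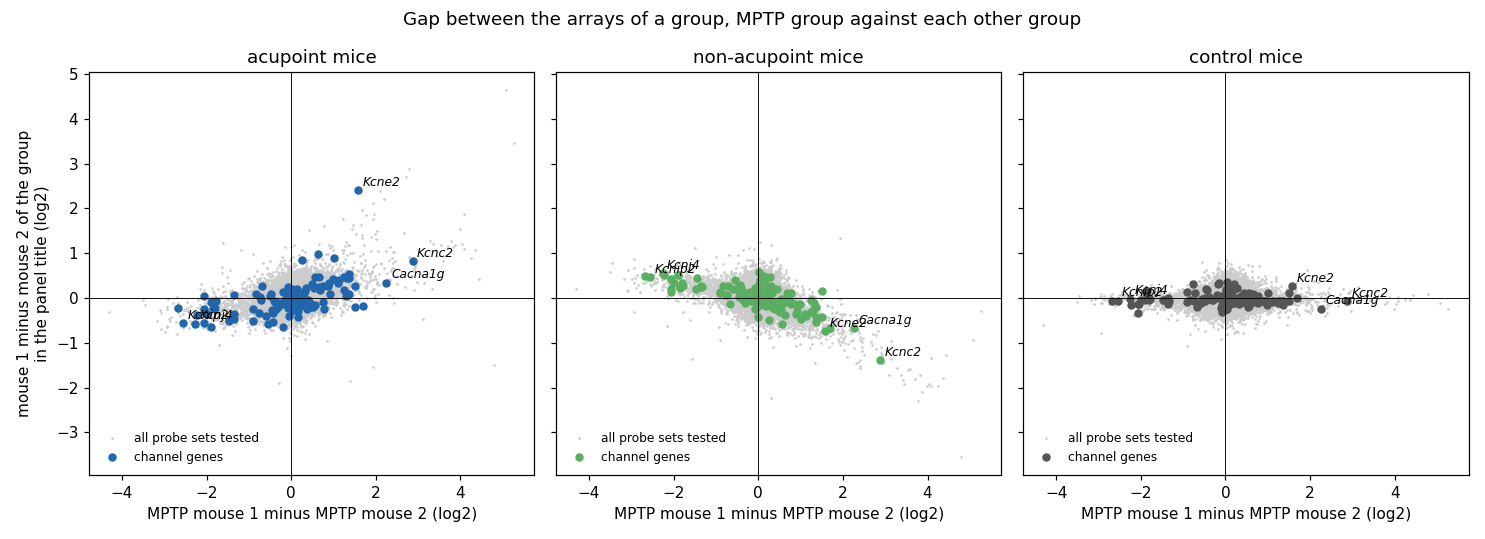
Distance between the mice of a group (mouse 1 minus mouse 2, log2) in the acupoint, non-acupoint and control groups (vertical axes) against the distance in the MPTP group (horizontal axis), with channel genes as coloured points over all probe sets tested in grey. Channel genes slope upward in acupoint mice (0.582) and downward in non-acupoint mice (-0.741), and lie flat in controls (0.014).

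Among sodium channels, pore genes differed in which mouse was high. Scn2a, the main sodium channel of projection neuron axons, is covered by 14 probe sets, and the one used here had 11.08 and 11.56 in MPTP mice 1 and 2, 11.56 and 11.47 in acupoint mice, 11.43 and 11.25 in non-acupoint mice and 11.50 and 11.49 in controls. All 14 were lower in MPTP mouse 1 than in mouse 2, by 0.24 to 0.95, and all 14 had a lower MPTP mean than control mean, with a median difference of -0.27. They read 1 gene and are not independent. MPTP mouse 2 alone lay below the control mean in 8 of the 14 and above it in 6, with a median of -0.01. In non-acupoint mice 12 of the 14 had a lower mean than in controls, with a median difference of -0.11. Scn8a, the sodium channel of the axon initial segment and nodes, had MPTP values of 9.96 and 9.63 against 9.46 and 9.58 in controls, a difference of 0.27 (SE 0.13, adjusted p = 0.93) that was 0.11 without MPTP mouse 1. Scn3a, known mainly from the developing brain, had 7.55 and 8.89 in MPTP mice 1 and 2, 8.67 and 8.61 in acupoint mice, 8.79 and 8.55 in non-acupoint mice and 8.83 and 8.89 in controls. It was low in MPTP mouse 1 alone. Scn7a, a sodium-sensing channel relative of glia, had 6.23 and 5.66 in MPTP mice 1 and 2, 6.48 and 6.00 in acupoint mice, 6.30 and 6.88 in non-acupoint mice and 6.09 and 6.27 in controls, so that both non-acupoint values exceeded both MPTP values. Of the beta subunits, Scn2b had the fifth smallest range of all members, 0.22 over the 8 arrays, while Scn3b had 8.94 in MPTP mouse 1 and between 9.64 and 9.73 elsewhere.

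Calcium channel pores spread over the whole range of behaviour. Cacna1d and Cacna1b, an L-type and the N-type pore, varied by only 0.21 each over the 8 arrays. Cacna1e, the R-type pore, had 7.97 and 9.78 in MPTP mice 1 and 2, 9.41 and 9.64 in acupoint mice, 9.67 and 9.34 in non-acupoint mice and 9.62 and 9.66 in controls. Cacna1h, a T-type pore, had 6.56 and 8.02 in MPTP mice 1 and 2, 7.48 and 7.98 in acupoint mice, 7.79 and 7.36 in non-acupoint mice and 7.56 and 7.60 in controls. These 2 genes were lowest in MPTP mouse 1, where the T-type gene Cacna1g was highest. Cacna1a, the P/Q-type pore of presynaptic terminals, had 8.98 and 8.61 in MPTP mice 1 and 2, 8.38 and 8.62 in acupoint mice, 8.42 and 8.50 in non-acupoint mice and 8.46 and 8.42 in controls. Its highest value was also that of MPTP mouse 1. Cacna1c, the main L-type pore of neurons, had 8.71 and 8.19 in MPTP mice and 7.92 and 8.06 in controls, a difference of 0.46 (SE 0.20, adjusted p = 0.93) that was 0.20 without MPTP mouse 1. Cacna1i, the third T-type pore, had 7.98 in MPTP mouse 1 and 8.54 in MPTP mouse 2, against 8.20 and 8.23 in controls.

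Accessory calcium channel subunits showed the same mixture. Cacna2d3, an alpha2delta subunit, had 9.53 and 10.88 in MPTP mice 1 and 2, 10.47 and 10.83 in acupoint mice, 10.43 and 10.18 in non-acupoint mice and 10.56 and 10.56 in controls, whereas Cacna2d1, a gabapentin-binding member of that family, ranged over 0.28. Cacnb1 had 7.95 in MPTP mouse 1 and between 8.84 and 9.42 on the other arrays, and Cacnb4, a beta subunit of many brain channels, had 10.13 to 10.49 on all 8. Several gamma subunits serve AMPA-type glutamate receptors rather than calcium channels. Cacng3 had 8.10 and 10.15 in MPTP mice 1 and 2, 9.73 and 9.69 in acupoint mice, 9.75 and 9.55 in non-acupoint mice and 9.95 and 10.09 in controls. Cacng5 and Cacng7, which form a separate branch of these receptor subunits, were instead highest in MPTP mouse 1, at 8.49 and 10.08. Cacng2 encodes stargazin, and its values were 9.69 and 9.60 in MPTP mice 1 and 2, 9.53 and 9.48 in acupoint mice, 9.40 and 9.47 in non-acupoint mice and 9.69 and 9.85 in controls.

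Potassium channel pores of the Kv1 to Kv4 families leaned to higher values in MPTP mouse 1, with a median distance from mouse 2 of 0.21 over 15 genes. Kcnc2, described above, had the widest distance of all 116 genes, 2.87. Kcna5 had the widest in the other direction among these pores, at 5.52 and 7.42 in MPTP mice 1 and 2, 7.16 and 7.25 in acupoint mice, 7.04 and 6.53 in non-acupoint mice and 6.85 and 6.91 in controls. Kcna4, an A-type pore, had 9.26 in MPTP mouse 1 and 10.16 in MPTP mouse 2, against 9.79 and 9.88 in controls. Kcnd2, the A-type Kv4 pore with which Kcnip2 assembles, ranged only from 10.33 to 10.70, and thus lacked the wide spread of its subunit. Kcnd3, another Kv4 pore, had 8.45 and 7.46 in MPTP mice and 7.68 and 7.83 in controls. Kcnc1, a Kv3 partner of Kcnc2, had 8.79 and 7.54 in MPTP mice 1 and 2, 7.92 and 7.74 in acupoint mice, 7.87 and 8.19 in non-acupoint mice and 7.68 and 7.74 in controls. The axonal channels Kcna1 and Kcna2 had 9.39 and 9.91 in MPTP mouse 1, the highest of their 8 values.

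Subunits that modify or assist Kv channels included several of the widest distances. Kcnv1, a silent Kv subunit, had 6.79 and 9.48 in MPTP mice 1 and 2, 8.90 and 9.12 in acupoint mice, 8.86 and 8.38 in non-acupoint mice and 9.10 and 9.18 in controls, a distance of -2.69 between the MPTP mice and the furthest below 0 of all members. Kcng3, another silent subunit, had 5.89 in MPTP mouse 1 and 7.37 to 7.74 elsewhere, and Kcng4 had 7.41 there and 6.05 to 6.56 elsewhere. Among KChIP subunits, Kcnip4 was highest in MPTP mouse 1 (10.68, against 9.49 to 9.99 on the other arrays), while Kcnip2 was lowest there and Kcnip3 ranged over 0.44. The cytoplasmic beta subunits split likewise. Kcnab1 had 9.98 and 11.33 in MPTP mice 1 and 2, 10.81 and 11.28 in acupoint mice, 10.92 and 10.66 in non-acupoint mice and 10.97 and 11.10 in controls. Kcnab3, in contrast, had 8.55 and 7.05 in MPTP mice 1 and 2, 7.22 and 6.95 in acupoint mice, 7.03 and 7.44 in non-acupoint mice and 6.81 and 6.87 in controls. Kcne4 had 6.27 in MPTP mouse 1 and 4.77 to 5.50 elsewhere.

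M-type channels of the Kv7 family slow repetitive firing and are closed by acetylcholine. Kcnq5 had 7.84 and 10.07 in MPTP mice 1 and 2, 9.43 and 9.80 in acupoint mice, 9.60 and 9.09 in non-acupoint mice and 9.71 and 9.85 in controls, whereas Kcnq3 stayed between 9.22 and 9.63 on all arrays. In the EAG family, Kcnh1 and Kcnh3 had 7.33 and 6.67 in MPTP mouse 1 against 8.53 or more and 7.61 or more on the other arrays. Kcnh2, the ERG channel, had its highest value there, 8.30. Kcnh5 ranged over 0.18, the second smallest range of all members. Among calcium- and sodium-activated channels the distance between the MPTP mice reached 1 for 1 of 11, Kcnmb2, an inactivating BK beta subunit, with 6.92 and 5.90 in MPTP mice 1 and 2, 6.70 and 5.80 in acupoint mice, 6.56 and 7.02 in non-acupoint mice and 6.21 and 6.09 in controls. Kcnma1, the BK pore, had 10.02 in MPTP mouse 1 and 9.46 to 9.70 elsewhere, and Kcnmb4, its neuronal beta subunit, ranged over 0.36. Kcnt1, a sodium-activated channel, had 7.82 and 8.41 in MPTP mice, against 8.12 and 8.22 in controls.

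The inward rectifiers lay in both directions. Beside Kcnj2 and Kcnj4, described above as low in MPTP mouse 1, the astrocyte channel Kcnj10 (Kir4 family), which clears extracellular potassium, had 9.79 and 8.50 in MPTP mice 1 and 2, 8.95 and 8.91 in acupoint mice, 9.07 and 9.34 in non-acupoint mice and 8.77 and 8.83 in controls. Its partner Kcnj16 had 8.06 and 6.75 in MPTP mice 1 and 2, 7.24 and 6.79 in acupoint mice, 7.56 and 7.67 in non-acupoint mice and 7.30 and 7.42 in controls. The mean of 6 of 6 astrocyte markers was 0.12 and -0.14 in MPTP mice, 0.12 and -0.08 in acupoint mice and 0.06 and 0.20 in non-acupoint mice relative to controls. Single astrocyte markers went both ways. Gjb6 had 8.94 and 7.73 and Aqp4 10.61 and 9.83 in MPTP mice 1 and 2, the order of Kcnj10, while Slc1a3 had 10.40 and 11.01. The part of astrocytes in these values was not tested. Kcnj9, a G protein-gated subunit gene like Kcnj3, had 8.57 and 7.44 in MPTP mice, against 7.60 and 7.67 in controls. Kcnj6, another of these subunits, had 6.43 and 5.94 in MPTP mice, against 6.11 and 6.02 in controls. Kcnj11, the pore of neuronal ATP-sensitive channels, ranged over 0.42.

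Leak channels with a pair of pore domains set the resting conductance. Kcnk2, the mechanosensitive channel TREK-1, had 7.68 and 9.67 in MPTP mice 1 and 2, 9.20 and 9.55 in acupoint mice, 9.19 and 8.85 in non-acupoint mice and 9.16 and 9.20 in controls. Its relative Kcnk4, TRAAK, had 8.33 and 6.63 in MPTP mice 1 and 2, 6.85 and 7.02 in acupoint mice, 6.73 and 7.40 in non-acupoint mice and 7.01 and 7.02 in controls, the reverse order in the MPTP mice. Kcnk1 had 10.56 to 10.92 on all arrays. Kcnk13 varied least of all 116 genes, with 6.65 to 6.78. The acid-sensitive channels Kcnk3 and Kcnk9 were highest in MPTP mouse 1. Kcnk3 had 7.96 there, against 7.29 and 7.38 in controls, and Kcnk9 had 8.41, against 7.87 and 7.98 in controls. The antisense genes Kcnd3os, Kcnmb4os1 and Kcnmb4os2 ranged over 0.54, 0.28 and 0.59.

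Kcne2 had the second widest range of the 116 genes, 2.74 over the 8 arrays. This small subunit modifies potassium channels and is abundant in the choroid plexus. Its values were 7.20 and 5.62 in MPTP mice 1 and 2, 7.72 and 5.31 in acupoint mice, 7.31 and 8.06 in non-acupoint mice and 5.68 and 5.43 in controls. It was thus high in MPTP mouse 1, acupoint mouse 1 and both non-acupoint mice, at 7.20 to 8.06, and low in the other 4 arrays, at 5.31 to 5.68. The 4 high arrays are those in which the choroid plexus markers averaged 2.07 to 2.71 above controls, while in the others they averaged -0.22 to 0.16. Kcnmb2, Kcnn2, Cacng5, Kcnj5 and Kcnj14 were also higher in each of these 4 arrays than in any of the others, over ranges of 0.81 to 1.24. They were not the only ones, as Kcnc2 and Cacna1g, with ranges of 2.87 and 2.25, did the same. So did Kcnh2, Kcnc1, Kcnj10, Kcng4, Kcnip1, Kcnb2, Kcnn3, Scn1a and Cacna2d4. This separation was thus widespread among channel genes and not particular to Kcne2. Its share over all probe sets was not counted, so the genes named are a description only. The thalamus, septum and pallidum markers also averaged higher in these 4 arrays, at 0.31 to 1.99, than in the others, at -0.74 to 0.01. For Kcne2, the non-acupoint mean exceeded the control mean by 2.13 (SE 0.80, adjusted p = 0.77) in limma. This was the widest difference of a channel gene with an unadjusted p under 0.05 in any comparison. The part of choroid plexus tissue in this difference was not tested.

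**Figure D4:**
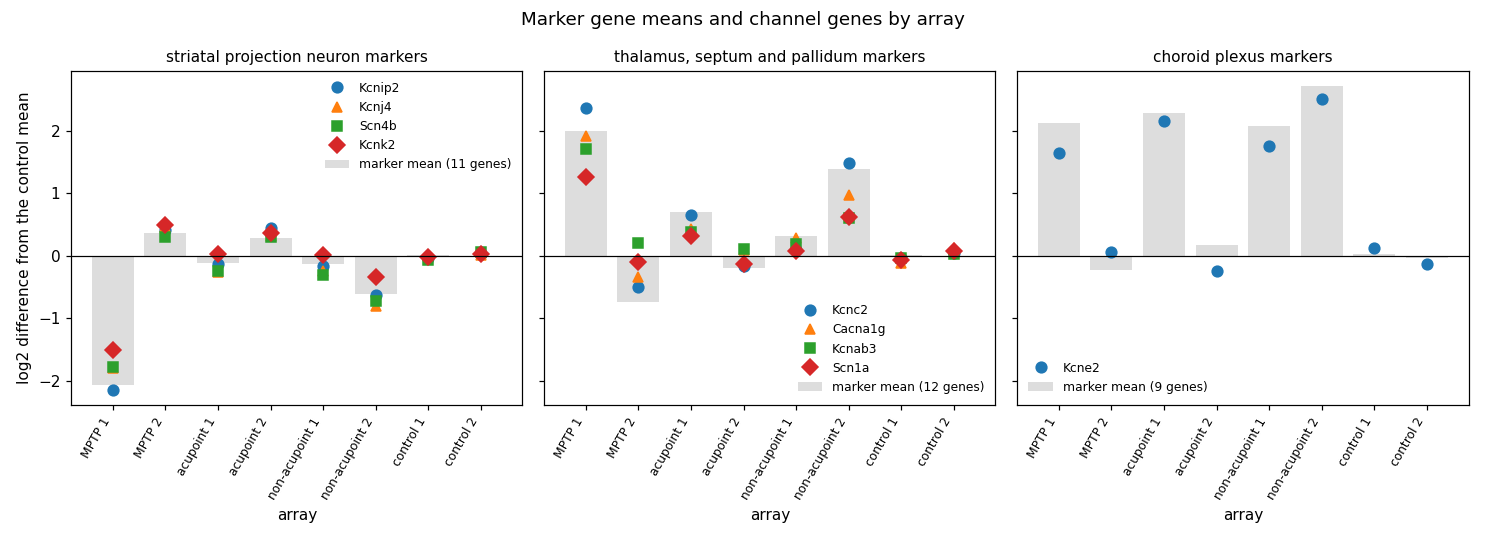
Mean of the striatal, thalamic and choroid plexus marker genes (grey bars) and values of selected channel genes (points) on each array, as log2 differences from the control mean. Kcnip2, Kcnj4, Scn4b and Kcnk2 lie near the striatal bars, Kcnc2, Cacna1g, Kcnab3 and Scn1a have the sign of the thalamic bars in MPTP mouse 1 and non-acupoint mouse 2, and Kcne2 lies near the choroid plexus bars.

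The comparison of MPTP with saline asks what the toxin changed. At an unadjusted p under 0.05, limma found 5 channel genes (4.31%), all with higher means in MPTP mice, against 2.11% of all probe sets higher, and 0 lower, against 1.89% of probe sets. Their groups did not overlap, which held for every channel gene at an unadjusted p under 0.05 in any contrast and so adds nothing to that filter. The share of all probe sets with groups that did not overlap was not counted. Kcnn1, a small-conductance calcium-activated channel that follows spikes with a pause, had 7.15 and 6.88 in MPTP mice against 6.64 and 6.67 in controls, a difference of 0.36 (SE 0.12, adjusted p = 0.93). Kcnab2, a Kv1 beta subunit of axons, had 11.10 and 10.77 against 10.55 and 10.55 in controls, a difference of 0.39 (SE 0.14, adjusted p = 0.93). Kcna1 differed by 0.29 (SE 0.11, adjusted p = 0.93), from values of 9.39 and 9.16 in MPTP mice against 8.96 and 9.02 in controls. Kcnj12, a Kir2 channel, had 7.13 and 6.70 against 6.50 and 6.53 in controls and differed by 0.40 (SE 0.16, adjusted p = 0.93), and Cacna1a by 0.35 (SE 0.15, adjusted p = 0.93). In each of these genes MPTP mouse 1 was the higher mouse, and without it the differences were 0.23, 0.22, 0.18, 0.18 and 0.17 in the order named. Without MPTP mouse 1 the count was 9, 4 higher and 5 lower (7.76%, against 5.22% of all probe sets). Without MPTP mouse 2 it was 62, 35 higher and 27 lower (53.4%, against 25.7%). The count and the share of all probe sets were both smaller without either acupoint mouse, either non-acupoint mouse or either control. Over the 116 genes, 69 had higher and 47 lower means in MPTP mice, with a median of 0.07, against 0.015 over all probe sets. All 16335 probe sets leaned the same way, with 8870 higher and 7465 lower. By family, 12 of 15 Kv1 to Kv4 pores and 10 of 13 inward rectifiers had higher means, with medians of 0.07 and 0.09, and 3 of 3 sodium channel beta subunits and 6 of 7 calcium channel gamma subunits had lower means, with medians of -0.39 and -0.06. For MPTP mouse 2 alone, 69 of the 116 genes likewise lay above the control mean and 47 below it, with a median of 0.04. For the families just named, the counts were less one-sided without MPTP mouse 1. MPTP mouse 2 alone was above the control mean for 8 of 15 Kv1 to Kv4 pores and 6 of 13 inward rectifiers. It was below it for 2 of 3 sodium channel beta subunits (median -0.02) and 3 of 7 gamma subunits. Some other families became more one-sided. Calcium channel beta subunits had 1 higher and 2 lower group means, but MPTP mouse 2 alone was above the control mean for 3 of 3. The EAG family had 3 higher and 4 lower group means, but MPTP mouse 2 alone was above for 5 of 7. Thalamic and striatal markers also differed between these groups, through MPTP mouse 1, and their part was not tested.

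The comparison of acupoint needling with MPTP alone asks whether needling at these points moved the channel genes. At an unadjusted p under 0.05, 0 were higher (1.04% of all probe sets) and 2 were lower (1.72%, against 2.56% of probe sets). They were Kcnn1, with 6.56 and 6.63 in acupoint mice against 7.15 and 6.88 in MPTP mice, a difference of -0.42 (SE 0.12, adjusted p = 0.90), and Kcnab2, with 10.56 and 10.66 against 11.10 and 10.77 in MPTP mice, a difference of -0.33 (SE 0.14, adjusted p = 0.90). Both were among the genes higher in MPTP mice than in controls, and the 2 comparisons share the MPTP arrays. Without MPTP mouse 1 the difference for Kcnab2 was -0.16, and the count of 2 was 11 (9.48%, against 5.35% of all probe sets). Without MPTP mouse 2 the count was 65 (56.0%, against 25.9%). The median over the 116 genes was -0.10, with 42 higher and 74 lower, against -0.04 over all probe sets. All 16335 probe sets leaned the same way, with 6588 higher and 9747 lower. Against controls, acupoint mice had 0 channel genes higher (0.618% of probe sets) and 1 lower (0.862%, against 1.30%), Cacng2, with a difference of -0.26 (SE 0.10, adjusted p = 1.00).

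Hip needling on top of MPTP was set against MPTP alone to ask whether needling elsewhere moved them. There were 3 channel genes higher (2.59%, against 3.51% of all probe sets) and 3 lower (2.59%, against 3.07%) at an unadjusted p under 0.05. The higher ones were Cacna2d2, an alpha2delta subunit, with 9.41 and 9.19 in non-acupoint mice against 8.50 and 8.99 in MPTP mice and a difference of 0.56 (SE 0.17, adjusted p = 0.66), then Kcnip1, a KChIP subunit of interneurons, at 0.63 (SE 0.23, adjusted p = 0.74), and Scn7a at 0.64 (SE 0.27, adjusted p = 0.74). The lower ones were Kcnj8, Kcnab2 and Kcnn1. Kcnj8 encodes the pore of the ATP-sensitive channel of pericytes, and its values were 6.71 and 6.67 in MPTP mice 1 and 2, 6.38 and 6.66 in acupoint mice, 6.17 and 6.18 in non-acupoint mice and 6.52 and 6.45 in controls. Its difference was -0.51 (SE 0.12, adjusted p = 0.59), and it was -0.53 to -0.49 whichever array was left out. The mean of 6 of 6 endothelial and pericyte markers lay between -0.15 and 0.07 from controls in all 6 MPTP-treated mice. Single markers went both ways. In non-acupoint mice Slco1c1 had 10.19 and 10.39, against 9.74 and 9.79 in controls. Cldn5 had 8.51 and 8.17 in non-acupoint mice, against 8.71 and 8.76 in controls. Vtn was also below both controls, and Pecam1, Rgs5 and Pdgfrb overlapped with controls. The part of vascular cells in the Kcnj8 values was not tested. Kcnab2 and Kcnn1 differed by -0.42 (SE 0.14, adjusted p = 0.70) and -0.31 (SE 0.12, adjusted p = 0.74). Leaving out MPTP mouse 1 gave 0.31 for Cacna2d2, 0.96 for Kcnip1, -0.26 for Kcnab2 and -0.18 for Kcnn1, leaving out MPTP mouse 2 gave 0.30 for Kcnip1, and leaving out non-acupoint mouse 2 gave 0.35 for Scn7a. The count of 6 and the share of all probe sets both rose without either MPTP mouse and fell without either control.

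Acupoint against non-acupoint needling asks whether the site mattered. Here 3 channel genes were higher in acupoint mice (2.59%, against 1.10% of all probe sets) and 0 lower (2.12% of probe sets). Kcnj8 had 6.38 and 6.66 in acupoint mice against 6.17 and 6.18 in non-acupoint mice, a difference of 0.34 (SE 0.12, adjusted p = 0.96). Cacng1, a gamma subunit best known from skeletal muscle, had 6.01 and 6.25 against 5.87 and 5.66 in non-acupoint mice, a difference of 0.36 (SE 0.12, adjusted p = 0.96). Kcnk15, a leak channel gene, had 6.41 and 6.83 against 6.35 and 5.93 in non-acupoint mice, a difference of 0.48 (SE 0.20, adjusted p = 0.96). Without acupoint mouse 2 the difference for Kcnj8 was 0.20, and without non-acupoint mouse 2 that for Kcnk15 was 0.27. The count of 3 and the share of all probe sets fell without acupoint mouse 2 or non-acupoint mouse 2. Both rose without acupoint mouse 1 or either MPTP mouse, and channel genes lower in acupoint mice then appeared as well. Array weights gave 3 higher and 8 lower (9.48%, against 5.87% of all probe sets). The thalamus marker covariate gave 4 higher and 8 lower (10.3%, against 5.52%).

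Against saline controls, non-acupoint mice had 3 channel genes higher (2.59%, against 3.76% of all probe sets) and 4 lower (3.45%, against 2.30%). Beside Kcne2, the higher ones were Kcnn2, a small-conductance calcium-activated channel, at 0.52 (SE 0.20, adjusted p = 0.77), and Kcnb2, a delayed rectifier, at 0.29 (SE 0.12, adjusted p = 0.77). Kcnn2 values were 8.40 and 7.86 in MPTP mice 1 and 2, 8.08 and 7.84 in acupoint mice, 8.08 and 8.33 in non-acupoint mice and 7.59 and 7.79 in controls, with every MPTP-treated mouse above both controls. Its 4 highest arrays were those high in choroid plexus markers, whose part was not tested. The lower ones were Cacng2 at -0.33 (SE 0.10, adjusted p = 0.77), Cacng1 at -0.33 (SE 0.12, adjusted p = 0.77), Kcnj8 at -0.30 (SE 0.12, adjusted p = 0.77) and the silent Kv subunit Kcnf1 at -0.31 (SE 0.12, adjusted p = 0.77). With all 6 MPTP-treated mice together, 1 channel gene was higher (0.862%, against 1.87% of probe sets), Kcnn2 at 0.41 (SE 0.16, adjusted p = 0.98), and 2 were lower (1.72%, against 1.51%). Those were Cacng2 at -0.24 (SE 0.08, adjusted p = 0.98) and Kcnf1 at -0.25 (SE 0.09, adjusted p = 0.98). Kcnf1 values were 8.75 and 8.82 in MPTP mice 1 and 2, 8.90 and 8.70 in acupoint mice, 8.67 and 8.73 in non-acupoint mice and 8.92 and 9.10 in controls, so every MPTP-treated mouse lay below both controls. Without control mouse 2 its difference was -0.15. The count of 7 in non-acupoint mice against controls and the share of all probe sets both rose without either MPTP mouse and fell without non-acupoint mouse 2. The count of 3 for all MPTP-treated mice was 48 without MPTP mouse 2 (23 higher and 25 lower, 41.4%, against 16.6%). Relative to controls, the mean of 6 of 8 listed cortical excitatory neuron markers was -0.74 and 0.05 in MPTP mice, -0.61 and -0.51 in acupoint mice and -0.88 and -0.28 in non-acupoint mice. Single cortical markers went both ways. In MPTP mouse 1, Slc17a7 (9.79) and Rorb (9.43) were above both controls, and Tbr1, Neurod2, Lamp5 and Fezf2 were below both. Lamp5 had 8.01 there, against 10.35 and 10.38 in controls. In non-acupoint mouse 1, Slc17a7 had 6.61, against 9.47 and 9.47 in controls. The part of these markers in the Kcnf1 and Cacng2 values was not tested. For Cacng2, the other probe set of the gene gave group differences from controls of 0.07 in MPTP, -0.25 in acupoint and -0.02 in non-acupoint mice. The test over the 4 groups had 2 channel genes at an unadjusted p under 0.05 (1.72%, against 3.72% of probe sets), Kcnj8 and Kcnn1, both with an adjusted p of 0.92 in limma. That count was 26 without MPTP mouse 1 (22.4%, against 9.19%) and 66 without MPTP mouse 2 (56.9%, against 22.2%).

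**Figure D5:**
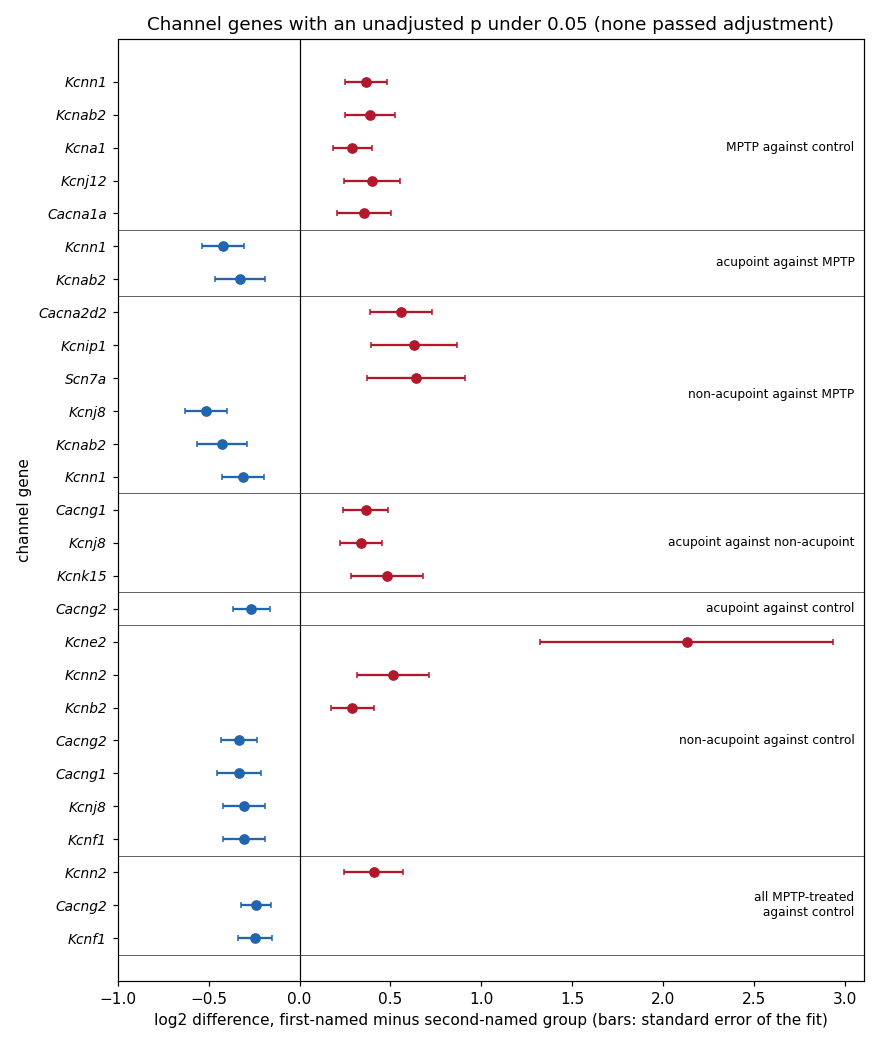
Log2 difference between group means with the standard error of the limma fit (bars) for the channel genes with an unadjusted p under 0.05, by comparison, as the first-named minus the second-named group. Most lie within 0.65 of 0, and Kcne2 in non-acupoint mice against controls stands furthest out with the widest error.

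Other genes of membrane excitability, a list of HCN channels, channel partners, pumps and exchangers that holds none of the 116, were read in the same fit. Of 59 listed, 51 were measured and 0 passed in any comparison. At an unadjusted p under 0.05, 2 of the 51 were higher and 2 lower in MPTP mice than in controls (2.11% and 1.89% of all probe sets). In acupoint against MPTP mice 0 were higher and 0 lower (1.04% and 2.56%). The counts were 1 and 1 in non-acupoint against MPTP mice (3.51% and 3.07%), and 0 and 1 in acupoint against non-acupoint mice (1.10% and 2.12%). The 2 higher in MPTP mice were Hcn2, a pacemaker channel (0.63, SE 0.25), and Abcc9, the sulfonylurea receptor that pairs with Kcnj8 (0.40, SE 0.16). Without MPTP mouse 1 these differences were 0.26 and 0.16. The 2 lower were Lrrc55, a BK channel partner (-0.34, SE 0.11), and Rrad, an inhibitor of calcium channels (-0.29, SE 0.12). The adjusted p was 0.93 for each of these 4 in limma. MPTP mouse 1 was lower than mouse 2 by 1 or more for 2 of the 51 and higher for 2, where 2.74% and 2.34% of all probe sets were.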

How the data were processed

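Each of 8 mice gave 1 array, from 300 ng of striatal total RNA per the labels' protocols. Per the submitters' processing notes, the authors used Affymetrix Expression Console and RMA (background correction, quantile normalisation, probe set summary), and the deposited table holds 1 log2 value per probe set and array, used as it stands. Array medians were 6.02 to 6.12. The genome build is not given in the sources used here. Quantile normalisation hides a change shared by most genes.

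The platform's gene table gave 1 symbol for 21789 of 35557 probe sets, several for 1621 and none for 12147. All 116 members matched the RefSeq table by gene ID, with 0 symbols changed. Probe sets with 1 symbol and a mean of at least 5.25 (their 25th percentile) were fitted in 1 group-means model over the 8 arrays (limma 3.58.1, R 4.3.3, lmFit and eBayes), with 4 residual and 2.94 prior degrees of freedom. Adjusted p-values are Benjamini-Hochberg values over all 16335 probe sets, with a threshold of 0.05, and each p printed comes from this model. For a single gene, 2 against 2 arrays allow no exact two-sided p below 0.333. The labels call the samples separate mice, and the number of arrays limits precision. No probe's level is set against another's.

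Named members had an unadjusted p under 0.05 with groups that did not overlap, were among the 10 with the smallest F-test p, had the widest distance between MPTP mice or the smallest range, led their family in mean level, lay next to the level threshold, or belonged to a fixed list of channels. The members, lists and rule were chosen with earlier results of these data known. The fit was tested on simulated data. Alternatives were other level filters, more probe sets, trend and robust shrinkage, median centring, quantile normalisation, array weights, a replicate block, a thalamus marker covariate, leaving out each array, and a gene's second probe set.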

Additional observations from a re-analysis of the deposited data

How the results depend on the processing

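The count of 0 channel genes past the adjusted threshold in limma held for all 7 contrasts and the 4-group test under every refit of the model (a gene's second probe set was not among them) except the one without MPTP mouse 2, where MPTP mouse 1 stands alone in its group and is assumed to vary like the others. Across the fits that leave out 1 array, the counts spanned 0 to 46 for MPTP against control, 0 to 43 for acupoint against MPTP, 0 to 28 for non-acupoint against MPTP, 0 to 3 for all MPTP-treated mice against control and 0 to 21 for the 4-group test. In the fit that gave the upper ends, 9.86%, 8.90%, 4.86%, 0.429% and 3.17% of all probe sets passed, in the same order. Counts at an unadjusted p under 0.05 also moved with the setting. With the thalamus marker covariate they were 17, 29 and 45 for MPTP against control, acupoint against MPTP and non-acupoint against MPTP, where the model without it gave 5, 2 and 6. The shares of all probe sets were 7.46%, 9.69% and 16.9% with it and 3.99%, 3.60% and 6.59% without it. Array weights gave 11 for acupoint against non-acupoint needling (9.48%, against 5.87% of all probe sets, and 3 without weights) and 12 for non-acupoint against control (10.3%, against 13.6%, and 7 without weights). The causes were not tested. All 27 named gene differences kept their sign in all 447 alternative values, but most of these could not have reversed it. The groups of these genes did not overlap, so leaving out 1 array could not turn a sign. Other level filters, more probe sets, shrinkage, array weights and the replicate block left the differences themselves unchanged. Only median centring, quantile normalisation and the thalamus marker covariate could have reversed one. The number of channel genes with MPTP mice apart by 1 or more, 34, was 34 with a gene's second probe set, 33 with arrays centred on their median and 33 after quantile normalisation.

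Mouse numbers are shared across groups in the labels, but nothing ties mice of the same number, and deviations of same-numbered mice correlated between -0.493 and 0.403 over pairs of groups. With the replicate block, 0 channel genes passed in each comparison. For MPTP against control, 3 rather than 5 had an unadjusted p under 0.05 (2.59%, against 3.21% of all probe sets). With 2 arrays per group, the median standard error of a channel gene difference was 0.20, which limits what could be detected.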

Other observations

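Among the genes of membrane excitability that are not themselves sodium, calcium or potassium channel genes, a few had the same spread between the MPTP mice. They were chosen after their values were seen. Rem2, a small GTPase that restrains calcium channels, had log2 values of 6.36 and 8.80 in MPTP mice 1 and 2, 8.31 and 8.60 in acupoint mice, 8.21 and 7.89 in non-acupoint mice and 8.31 and 8.19 in controls. Slc8a2, a sodium-calcium exchanger of neurons, had 7.28 and 9.05 in MPTP mice 1 and 2, 8.50 and 8.75 in acupoint mice, 8.52 and 8.21 in non-acupoint mice and 8.73 and 8.79 in controls. Both were lowest in MPTP mouse 1 and next lowest in non-acupoint mouse 2, as were Kcnip2 and Kcnj4. Hcn4, a pacemaker channel gene, had 7.51 and 6.19 in MPTP mice 1 and 2, 6.47 and 6.71 in acupoint mice, 6.74 and 6.95 in non-acupoint mice and 6.48 and 6.56 in controls, and the astrocyte sodium pump subunit Atp1b2 had 11.55 and 10.46 in MPTP mice 1 and 2, 10.87 and 10.82 in acupoint mice, 10.99 and 11.18 in non-acupoint mice and 10.72 and 10.75 in controls. These were highest in MPTP mouse 1.

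Lrrc55, an auxiliary subunit of BK channels, had 7.54 and 7.62 in MPTP mice 1 and 2, 7.64 and 7.75 in acupoint mice, 8.11 and 7.89 in non-acupoint mice and 7.88 and 7.95 in controls. Its mean was higher in non-acupoint than in MPTP mice by 0.42 (SE 0.11, adjusted p = 0.62 in limma), with groups that did not overlap, and lower in acupoint than in non-acupoint mice, with a difference of -0.31 (SE 0.11, adjusted p = 0.96).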
